A study of Homo sapiens with 6 samples.

Results

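Transcripts of 10 Krüppel-like factors, KLF3, KLF4, KLF5, KLF6, KLF7, KLF9, KLF10, KLF11, KLF13 and KLF16, were followed in human neurons with and without isoproterenol, an agonist of β-adrenergic receptors. The members were found by their gene names in the deposited table, which lists 19823 genes. Of the 10 names, 9 had a row and all 9 passed the filter on low values (more than 5 reads in at least 4 samples), among 18130 genes kept. The expression of KLF4 was not analysed here, and only its promoter window is described. The family was chosen by its values in this contrast, isoproterenol against untreated, overall and within same-numbered samples. The members' differences between treated and untreated samples are therefore given as a description with no p-value, and calls of the fits across all genes are listed for them only beside the share of all genes called.

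The 6 RNA-seq samples were iNeurons, glutamatergic neurons differentiated from the established human induced pluripotent stem cell line WTc11. In all 6 the RNA-binding protein RBM12 was knocked down by CRISPR interference, and samples with a control guide were not analysed here. The untreated group and the isoproterenol group have 3 samples each, with neither dose nor duration in the labels. By the study's methods, the line is 1 clone in which doxycycline drives the transcription factor NGN2 and in which dCas9-KRAB silences the targeted gene, and it makes little β2-adrenergic receptor of its own. Replicate numbers 1 to 3 are shared by both groups, and same-numbered samples are called a pair.

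Krüppel-like factors are transcription factors whose zinc fingers at the carboxyl end bind GC-rich sequences and CACCC boxes, and the related SP factors bind much the same DNA. The parts outside the zinc fingers differ, so that some family members mainly recruit activators and others mainly recruit repressors such as CtBP or Sin3A. Several are induced rapidly by growth factors, hormones or depolarization, and in neurons the family is known for its opposing effects on axon growth. Isoproterenol binding to β-adrenergic receptors raises cyclic AMP, which activates protein kinase A and the factor CREB, and CREB binds the cyclic AMP response element.

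The table held 18116816 to 21488793 reads per sample, and mitochondrial genes took 3.44% to 4.54% of them. RBM12 itself was at 244 to 279 normalized counts in untreated and at 195 to 238 in isoproterenol samples. Normalized counts are reads divided by the authors' size factor for the sample. The RBM12 groups did not overlap, as in 6.19% of all genes with isoproterenol lower. Any part of this in the KLF values was not tested. Without a control guide the RBM12 values do not check the knockdown. Of 16 markers of glutamatergic neurons, all 16 were present and their summed normalized counts were 709419 to 755135 in untreated and 693015 to 709572 in isoproterenol samples. The pan-neuronal tubulin TUBB3 was low among them, at 69.2 to 94.4. Of 8 pluripotency markers, 4 had a row, with sums of 339 to 388 and 349 to 406, of which the surface protein PODXL made up most, while SOX2 was at 0 in 5 of 6 samples and POU5F1 at 1.03 to 10.4. Rows were present for 3 of 7 astrocyte markers (3138 to 3469 and 3026 to 3361), 3 of 6 proliferation markers (488 to 508 and 492 to 594), 2 of 8 fibroblast and mesenchymal markers (8331 to 9238 and 8137 to 8610) and 1 of 6 endothelial markers (2.09 to 7.24 and 6.92 to 15.4). In the fibroblast and mesenchymal sums, 1 of the 2 genes made up nearly all of the counts, so these sums rest on a single gene. The part of other cells in the results was not tested. Because these are bulk samples, fewer cells of a type and less RNA per cell cannot be told apart.

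Promoter sequence was examined for letters of the cyclic AMP response element and of common promoter boxes. RefSeq windows on GRCh38.p14, from 250 bases before to 50 after a transcription start, were found for 8 of the 10 members, 13 windows in all, and none was matched for KLF3 or KLF10. Both strands were searched for the cyclic AMP response element TGACGTCA, its core TGACG, the GC box GGGCGG, the CACCC box CACCC, the CCAAT box CCAAT, the TATA box TATAAA and the CArG box. A full response element holds the core on both strands, so the 2 searches overlap. The stretches below lie outside annotated exons and are printed on the gene's strand, 5′ to 3′. Capitals mark a match on either strand to any of these motifs except CACCC. KLF6 is shown because its transcript differed most in counts between the groups, and KLF11, KLF5 and KLF16 as examples of windows that hold the response element or its core, those of KLF4 and KLF13 also holding the core.
KLF6, chr10:3785282-3785459, minus strand: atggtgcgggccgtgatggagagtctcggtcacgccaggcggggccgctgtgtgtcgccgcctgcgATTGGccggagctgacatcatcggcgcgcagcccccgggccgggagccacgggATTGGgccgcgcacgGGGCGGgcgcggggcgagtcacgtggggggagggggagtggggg
KLF11, chr2:10043971-10044174, plus strand: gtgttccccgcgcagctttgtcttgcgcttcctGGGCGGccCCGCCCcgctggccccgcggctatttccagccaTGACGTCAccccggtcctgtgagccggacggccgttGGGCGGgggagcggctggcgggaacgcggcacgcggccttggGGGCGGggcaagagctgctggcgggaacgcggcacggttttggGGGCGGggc
KLF5, chr13:73058755-73059004, plus strand: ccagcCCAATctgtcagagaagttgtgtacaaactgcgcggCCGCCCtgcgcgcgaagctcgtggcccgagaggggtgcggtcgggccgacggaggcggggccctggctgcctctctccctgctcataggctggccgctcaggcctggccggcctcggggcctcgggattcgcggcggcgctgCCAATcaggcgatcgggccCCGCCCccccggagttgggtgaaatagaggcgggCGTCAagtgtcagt
KLF16, chr19:1863580-1863829, minus strand: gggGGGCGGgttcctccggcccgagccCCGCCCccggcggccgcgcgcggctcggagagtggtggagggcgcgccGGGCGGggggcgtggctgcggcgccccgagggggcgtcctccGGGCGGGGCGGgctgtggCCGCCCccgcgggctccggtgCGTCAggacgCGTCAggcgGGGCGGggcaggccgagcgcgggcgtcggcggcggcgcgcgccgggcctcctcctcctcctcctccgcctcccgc

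The full response element was present in 1 of the 13 windows, that of KLF11, 176 bases before the start. Among all 35116 windows of this length it was present in 1.85%. The core was present in 5 member windows, those of KLF4, KLF5, KLF11, KLF13 and KLF16, against 24.6% of all windows. The KLF6 window held neither, and had 2 CCAAT boxes at 184 and 131 bases and 2 GC boxes at 116 and 61 bases before the start. The GC box at 61 bases lies in an annotated exon and is not printed. GC boxes were present in 8 member windows (45.0% of all windows), CACCC boxes in 7 (59.9%), CCAAT boxes in 6 (34.6%), a TATA box in 1 window of KLF5 (11.5%) and a CArG box in 1 window of KLF7 (1.29%). These are matches of letters and not sites of binding.

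**Figure D1:**
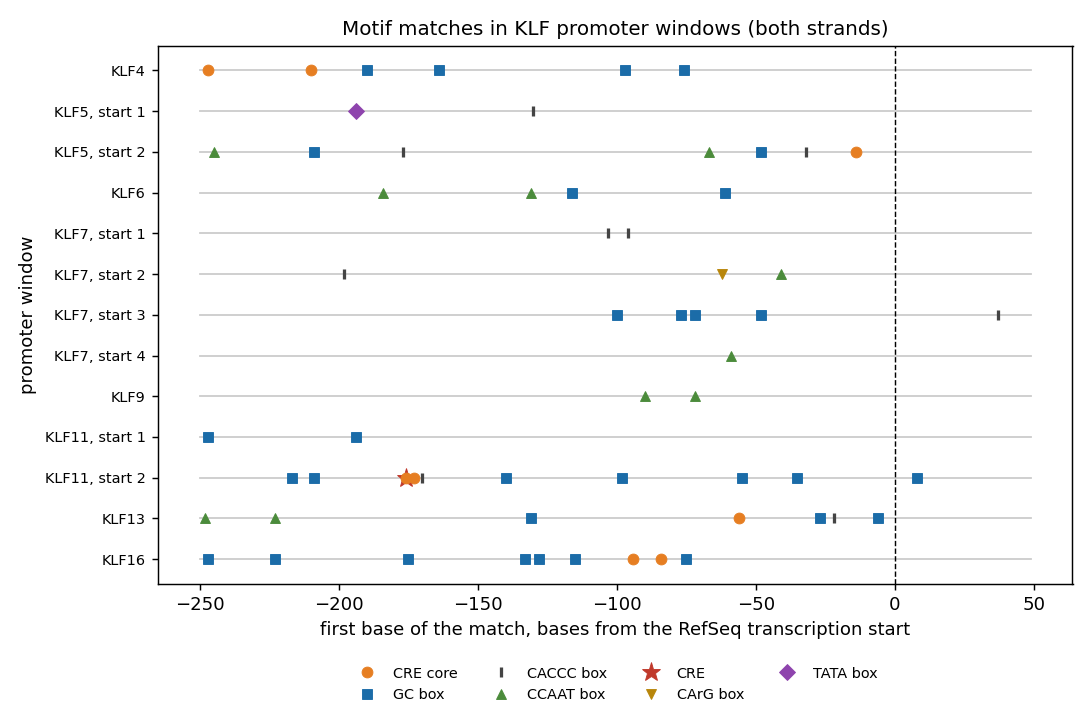
Motif matches in the 13 promoter windows of 8 KLF genes. The x axis is the distance in bases of the first base of each match from the RefSeq transcription start (dashed line), each row is 1 window, and symbols stand for the motifs. The only full cyclic AMP response element (star) lies 176 bases before a KLF11 start, and the KLF6 row has CCAAT and GC boxes only.

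KLF6, a zinc finger activator induced by growth factors and injury that promotes axon regrowth in animal models, was among the higher members of the family. The gene (ENSG00000067082) lies at chr10:3775996-3785281 on the minus strand of GRCh38 by GENCODE release 44. Its normalized counts were 966, 783 and 880 in untreated replicates 1, 2 and 3. With isoproterenol they were 1259, 1077 and 1197. Every isoproterenol sample was above every untreated sample, and in both groups replicate 1 was the highest and replicate 2 the lowest. The means were 876 ± 91.6 and 1178 ± 92.6 (SD, n = 3), a difference of 34.4%, or 0.43 (SE 0.077) as log2(normalized count + 1). With the replicate number as a block the SE was 0.049. The pairs gave log2 differences of 0.38, 0.46 and 0.44. Their SD was 0.041, where the spread within the groups (0.13) would give 0.19 if the samples were not paired. The family was chosen partly by these same pairs, so this closeness is a description only.

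KLF10 (ENSG00000155090), a repressor first known as a TGFβ-inducible early gene, was at 96.1, 122.9 and 70.3 normalized counts in untreated replicates 1, 2 and 3. With isoproterenol it was at 133, 164 and 154. The groups did not overlap, although untreated replicate 2 came within 9.82 normalized counts of isoproterenol replicate 1. The means were 96.4 ± 26.3 and 150.1 ± 15.9, a log2 difference of 0.66 (SE 0.18, or 0.14 with the replicate number as a block). Pairs 1 and 2 gave 0.46 and 0.41 and pair 3 gave 1.12, since untreated replicate 3 was the lowest of the 6 samples. Without pair 3 the log2 difference was 0.44.

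KLF5 (ENSG00000102554, chr13:73054976-73077541, plus strand), an activator of proliferation in epithelia that WWP1 and other ligases mark for degradation, was a low transcript. Its normalized counts were 17.8, 17.4 and 17.6 in untreated replicates 1, 2 and 3 and 37.9, 27.7 and 30.8 with isoproterenol. The groups did not overlap, and each value rested on 17 to 38 reads, 52 in all untreated and 92 in all isoproterenol samples. The means were 17.6 ± 0.167 and 32.1 ± 5.25, a log2 difference of 0.82 (SE 0.28), with 1.05, 0.64 and 0.77 in the pairs. The untreated values lay closer together (coefficient of variation 0.95%) than counting error alone would give on average (24.0%).

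KLF7 (ENSG00000118263, chr2:207074137-207173856, minus strand), a close relative of KLF6 that is needed for axon growth in sensory and other developing neurons, was the most abundant member. It was at 3787, 3951 and 3760 normalized counts in untreated and at 3968, 4161 and 4015 in isoproterenol replicates 1, 2 and 3. The groups did not overlap, but the log2 difference was 0.08 (SE 0.043), with 0.067, 0.075 and 0.094 in the pairs. KLF13 (ENSG00000169926, chr15:31326835-31435665, plus strand), a member of the subgroup that recruits Sin3A, was at 2003, 2023 and 1942 against 2106, 2026 and 2058. Only 2.98 normalized counts separated these groups, and the log2 difference was 0.05 (SE 0.048).

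**Figure D2:**
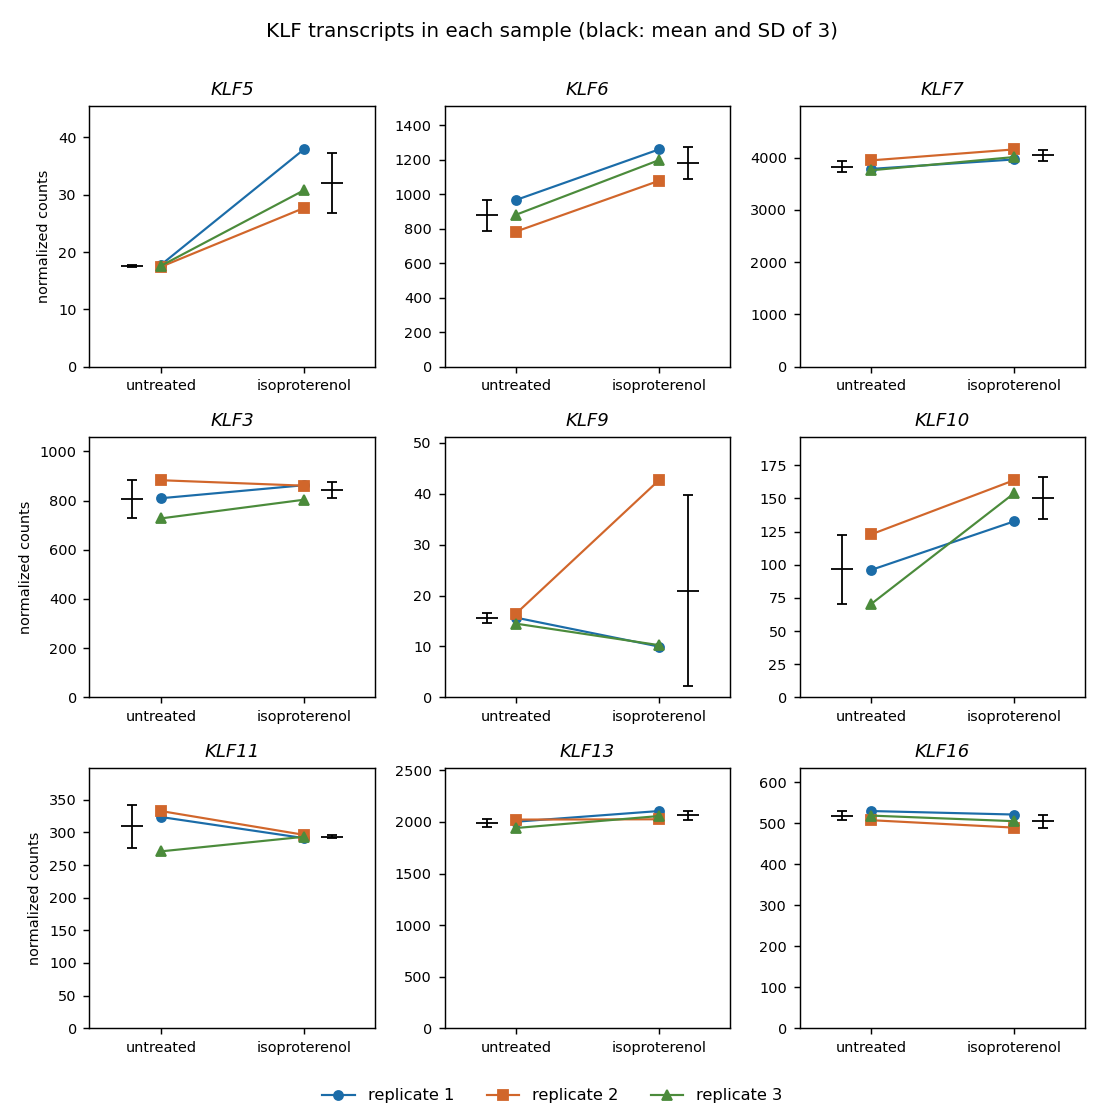
Normalized counts of the 9 KLF transcripts with a row, 1 panel per gene with a y axis from 0. Points are samples, lines join same-numbered samples, and black marks are the mean and SD of 3. KLF6 lines run almost parallel from 783 to 966 up to 1077 to 1259, and isoproterenol replicate 2 stands alone in KLF9.

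The groups overlapped in the other 4 members. KLF3 (ENSG00000109787, chr4:38664197-38701517, plus strand), which recruits the corepressor CtBP, was at 809, 882 and 727 normalized counts in untreated and at 862, 860 and 803 in isoproterenol samples, a log2 difference of 0.07 (SE 0.072). It was -0.006 without untreated replicate 3. KLF11 (ENSG00000172059, chr2:10042849-10054836, plus strand), a relative of KLF10 that recruits Sin3A and is the member whose window holds the full response element, was at 324, 333 and 271 against 291, 296 and 293. Its log2 difference was -0.07 (SE 0.099), and the pairs gave -0.15, -0.17 and 0.11. Leaving out 1 sample moved it between -0.16 (without untreated replicate 3) and -0.012 (without untreated replicate 2), and it was -0.032 without untreated replicate 1. KLF16 (ENSG00000129911, chr19:1852399-1863579, minus strand), another member of the Sin3A-recruiting subgroup, was at 529, 507 and 518 against 521, 489 and 505, lower in each of the 3 pairs by 0.023 to 0.052 and by 0.04 overall (SE 0.073). Leaving out 1 sample gave -0.061 (without isoproterenol replicate 1) to -0.015 (without isoproterenol replicate 2).

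KLF9 (ENSG00000119138, chr9:70384604-70414657, minus strand), a member induced by glucocorticoid and thyroid hormones in neurons, was the member with the widest spread. Its normalized counts were 15.7, 16.4 and 14.5 in untreated samples and 9.98, 42.7 and 10.3 in isoproterenol replicates 1, 2 and 3. Isoproterenol replicate 2 was above every other sample and the other 2 isoproterenol samples were below every untreated one, on 10 to 37 reads a sample. The log2 difference was 0.09 (SE 0.45) with all samples and -0.57 without isoproterenol replicate 2. Without isoproterenol replicate 1 or 3 it was 0.43 and 0.41, and in edgeR and DESeq2 without the pairs it was 0.39 and 0.41.

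Over the 9 members the log2 difference was above 0 in 7, as in 50.5% of all genes tested. The median was 0.079, beside 0.0015 over all genes tested, and it was 0.072 without KLF6. By pair the median was 0.073, 0.075 and 0.11, and leaving out 1 sample moved it between 0.041 (without untreated replicate 3) and 0.13 (without untreated replicate 2). The 5 members whose groups did not overlap, KLF5, KLF6, KLF7, KLF10 and KLF13, were all higher with isoproterenol, where 6.73% of all genes were, and these 5 were also the members higher in each of the 3 pairs (18.5% of all genes). Only KLF16 was lower in all 3 (17.6%). Under limma without the pairs, no member was past a false discovery rate (FDR) of 0.05, where 0.0165% of all genes were (3 genes), 3 members having an unadjusted p under 0.05 (7.68% of all genes). With the block this was so for 4 members (16.2%). With the replicate number as a block, KLF6 and KLF10 were past it, both higher, where 2.82% of all genes were. KLF6 was past the threshold in 8 of 22 alternative settings and KLF10 in 4 of 22, while 0 to 977 of all genes were, depending on the setting. These settings refit the same samples and are not independent of each other. edgeR with the block called both (5.39% of all genes in either direction). DESeq2 called KLF6, without the pairs (0.116% of all genes) and with the block (0.789%). Since the members were picked with this contrast in view, nothing is read from these counts.

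KLF10 lost its call in the block without pair 3, and KLF5, KLF7 and KLF13 were never past the threshold. For KLF5, DESeq2 with the block gave no adjusted p. The summed normalized counts of the 9 members were 8201 to 8636 in untreated and 9066 to 9189 in isoproterenol samples, without overlap. Because the members were picked with this contrast in view, the sum is a description only. KLF6 made up 44.9% of the 671 normalized counts by which the mean sum differed, and KLF7, for all its small log2 difference, made up 32.1%. The 671 is a net figure, since KLF11 and KLF16 were lower with isoproterenol.

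**Figure D3:**
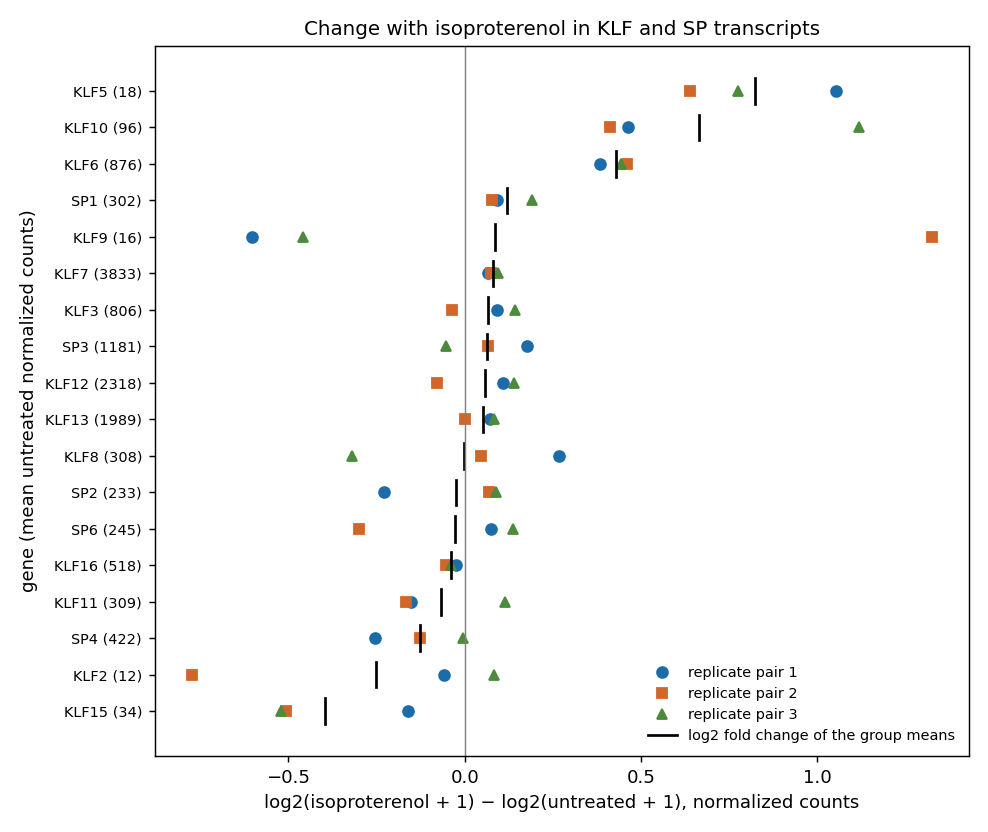
Log2 difference between isoproterenol and untreated samples in each same-numbered pair for 18 KLF and SP transcripts, with the mean untreated normalized counts in brackets. Symbols are the 3 pairs and black bars the log2 fold change of the fit over 3 samples a group. KLF5, KLF10 and KLF6 have all 3 pairs to the right of 0.25, and the KLF9 pairs fall on both sides of 0.

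No gene in the rest of the family passed the test. Of 8 other KLF genes on the list 4 had a row (KLF2, KLF8, KLF12 and KLF15), and of 9 SP genes 5 had one (SP1, SP2, SP3, SP4 and SP6). None of these 9 genes was past FDR 0.05 in limma or edgeR, with or without the block, or in DESeq2 where it gave an adjusted p. DESeq2 with the block gave no adjusted p for KLF2 and KLF15. No gene of the 9 had an unadjusted p under 0.05 in limma in either fit. Their median log2 difference was -0.02, from -0.40 to 0.12. KLF15, a regulator of gluconeogenic and amino acid metabolism induced by glucocorticoids, was the lowest, at 31.3, 34.8 and 37.2 normalized counts untreated against 27.9, 24.2 and 25.6. Its groups did not overlap, as in 6.19% of all genes in this direction, and its adjusted p was not past the threshold. SP1, the founding member of the SP family, was the highest, at 302 ± 16.8 against 328 ± 10.3 (log2 difference 0.12, SE 0.091). KLF12, a CtBP-recruiting repressor closely related to KLF3, was at 2318 ± 124 and 2410 ± 97.4, and SP3, which binds the same boxes as SP1, at 1181 ± 55.1 and 1234 ± 44.8. SP4, a neuronal SP factor, was at 422 ± 44.5 and 384 ± 19.1. KLF2, an endothelial factor, was at 12.5 ± 3.55 and 10.5 ± 4.25 (n = 3 in each group).

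Levels were compared between genes as normalized counts per kilobase of exon. Untreated neurons had KLF7 highest at 399 ± 10.7 per kilobase (SD, n = 3), above 88.1% of 18064 genes with a length. KLF13 (211 ± 4.50), KLF12 (200.7 ± 10.7), KLF16 (175 ± 3.77), KLF6 (143 ± 14.9) and KLF3 (119 ± 11.5) came next, and the ranges of KLF12 and KLF13 overlapped, as did those of KLF3 and KLF6. KLF11 at 67.3 ± 7.26 lay among SP3, SP4, SP2 and SP6 (60.5 to 69.9), where each neighbour overlapped the next. KLF10 at 25.2 ± 6.88 overlapped KLF8 at 24.2 ± 2.19. KLF5 (4.78 ± 0.05), KLF2 (4.41 ± 1.26) and KLF9 (2.99 ± 0.19) were the lowest, and KLF2 overlapped both of its neighbours. With isoproterenol KLF6 was at 192 ± 15.1 per kilobase and took the fourth place from KLF16 (170 ± 5.37), though their ranges touched, KLF6 starting at 175 and KLF16 reaching 176. KLF10 was then at 39.3 ± 4.15 and KLF5 at 8.73 ± 1.43, and both kept their place in the order.

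**Figure D4:**
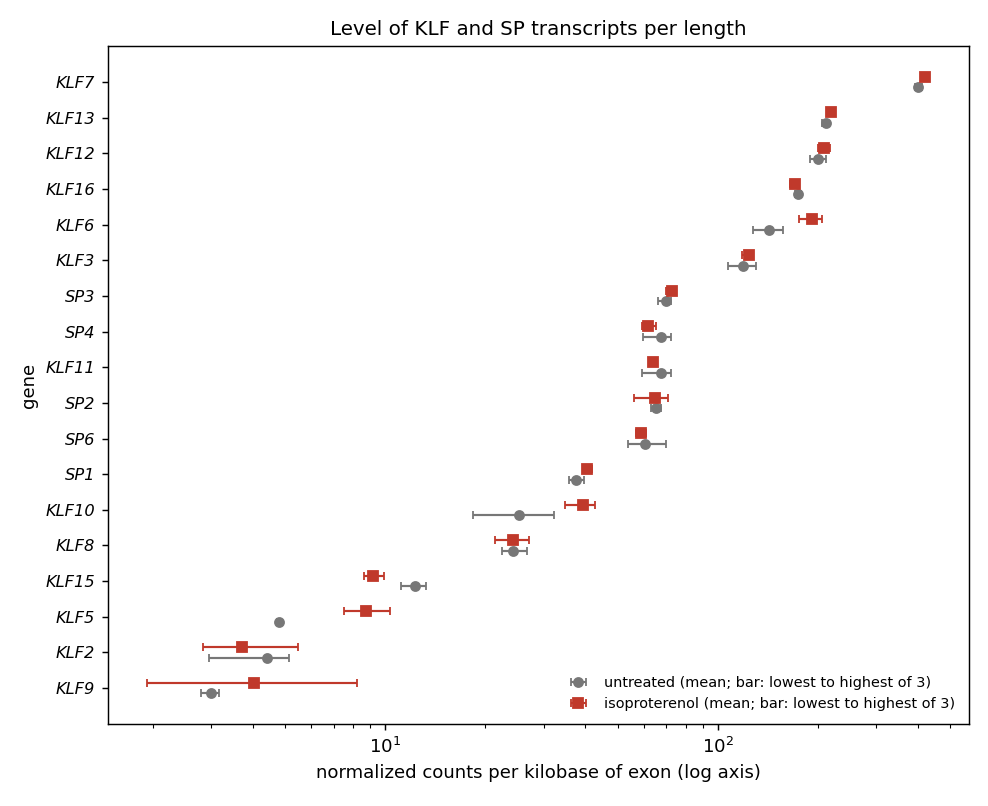
Level of 18 KLF and SP transcripts as normalized counts per kilobase of exon on a log axis, in order of the untreated mean. Points are means of 3 samples and bars run from the lowest to the highest sample, grey for untreated and red for isoproterenol. KLF7 is highest at 399 untreated, and KLF6 passes KLF16 with isoproterenol.

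Exons of 4 members overlap those of genes on the opposite strand, and whether reads were counted by strand is not stated. KLF3 shares 265 exonic bases (3.91% of its exons) with KLF3-AS1, which was at 253 and 242 normalized counts on average. KLF16 shares 483 bases (16.3%) with ENSG00000267125, KLF11 shares 416 (9.06%) with ENSG00000271787, and KLF7 shares 67 with MYOSLID and 13 with ENSG00000224342. No overlapping gene was found for KLF6, KLF10 or KLF5.

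The genes whose pattern over the 6 samples was most like that of KLF6 were named by Pearson's r of log2(normalized count + 1), as a description over samples that share both treatment and pairs. Among 13062 other genes with a mean of at least 50, they were KLHL23 (r = 0.997), PLCG1 (0.995), SULF2 (0.995), BAG3 (0.992) and KIAA1549 (0.992). Of all these genes 294 were above 0.9, and the log2 differences of the named 5 ran from 0.092 to 0.30. Those most like KLF10 were INVS (0.989), LIMA1 (0.983) and SLIT1 (0.983), of 95 above 0.9. Within the family, SP1 (0.979) and KLF7 (0.937) were most like KLF10, and KLF13 (0.721) was most like KLF6, while KLF6 and KLF10 were at 0.558 with each other.

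Partners of the family were counted from lists of corepressors, coactivators, ubiquitin ligases and deubiquitinases. Of 23 such genes 22 were tested and none was past FDR 0.05 in limma without the block, where 2 had an unadjusted p under 0.05 (7.68% of all genes) and neither edgeR nor DESeq2 called any. With the block, 2 were past it, where 4.88% of all genes were. WWP1, a HECT-type ubiquitin ligase, rose from 748, 666 and 714 to 820, 770 and 822 normalized counts, without overlap (log2 difference 0.18, limma adjusted p = 0.038 with the block and 0.54 without it). RBBP7, a histone-binding subunit of Sin3 and other deacetylase complexes, fell from 1722, 1703 and 1679 to 1563, 1536 and 1574 (log2 difference -0.13, limma adjusted p = 0.042 with the block and 0.57 without it). DESeq2 with the block called neither (adjusted p = 0.68 and 0.66 for WWP1 and RBBP7). Leaving out any 1 pair ended both calls, with limma adjusted p of 0.074 to 0.22 for WWP1 and 0.11 to 0.21 for RBBP7. The median of the 22 was 0.012. The CtBP genes, SIN3A, SIN3B and the deacetylases HDAC1, HDAC2 and HDAC3 did not pass in either fit, with log2 differences between -0.03 and 0.19.

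Genes reported elsewhere as targets of KLF factors numbered 17, of which 14 were tested. This list, like the other gene lists, was drawn up with earlier results of these data known. Its calls and p-values are therefore a description only. Without the block limma called none of the 14, 2 having an unadjusted p under 0.05 (7.68% of all genes), and DESeq2 without the block called 1. With the block 3 were past FDR 0.05 (4.88% of all genes), all higher, and the median of the 14 was 0.03. CCND1, the D-type cyclin of early G1, rose from 3938, 3687 and 3714 to 4749, 4335 and 4298 normalized counts, without overlap (log2 difference 0.24, limma adjusted p = 1.92e-10 with the block and 0.12 without it).

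MAOA, the monoamine oxidase that breaks down serotonin and noradrenaline, rose from 245, 196 and 204 to 323, 264 and 320, again without overlap (log2 difference 0.49, limma adjusted p = 0.00012 with the block and 0.20 without it). CDKN1A, the cyclin-dependent kinase inhibitor p21, rose from 304, 217 and 291 to 353, 285 and 453, where isoproterenol replicate 2 lay below untreated replicates 1 and 3 (log2 difference 0.42, limma adjusted p = 0.00047 with the block and 0.65 without it). Its log2 difference was 0.24 without isoproterenol replicate 3, and with the block its call was lost without pair 3 (limma adjusted p = 0.12), while CCND1 and MAOA stayed past the threshold in limma with any 1 pair left out. DESeq2 with the block called CCND1 (adjusted p = 2.92e-05) but neither MAOA (0.080) nor CDKN1A (0.16). The axon growth protein GAP43 and the adhesion molecule L1CAM were not past the threshold in either fit, with log2 differences of -0.04 and -0.03.

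**Figure D5:**
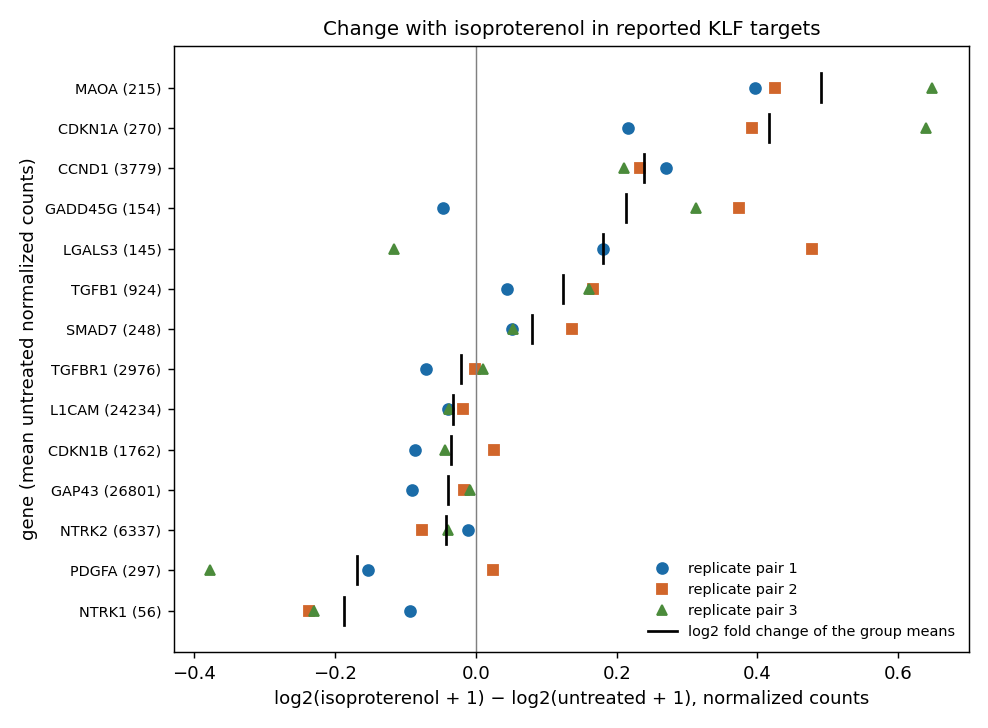
Log2 difference between isoproterenol and untreated samples in each same-numbered pair for the 14 tested genes reported as KLF targets, with the mean untreated normalized counts in brackets. Symbols are the 3 pairs and black bars the log2 fold change of the fit. MAOA, CDKN1A and CCND1 have all 3 pairs above 0.2, and each of the other 11 has at least 1 pair below 0.2.

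Among 27 tested markers of cell types, none was past FDR 0.05 in limma without the block, nor by edgeR or DESeq2 without it. An unadjusted limma p under 0.05 was found for 2 of them (7.68% of all genes). With the block limma called 3 (4.88% of all genes). The synaptic vesicle protein SYP and the neurofilament NEFL fell (log2 differences -0.11 and -0.05) and the NMDA receptor subunit GRIN1 rose (0.29), with limma adjusted p of 4.31e-06, 0.00027 and 0.00027. edgeR with the block also called 3 markers, but not NEFL (adjusted p = 0.082). At least 1 of its calls was thus another marker, which is not named here. Of SYP, NEFL and GRIN1, DESeq2 with the block called only SYP (adjusted p = 0.025). The summed neuron markers stand above, and their part in the KLF values was not tested.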

How the data were processed

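Poly(A) RNA was selected. The study's methods name library kits, a directional one among them, for HEK293 cells and none for the neurons. The authors aligned reads to GRCh38 with STAR (the submitters' processing notes name Subread) and counted them per gene with featureCounts. The deposited signal is each count divided by a DESeq2 size factor (0.867 to 1.03). Dividing by each column's step gave whole reads for 100% of values, within 0.01 reads.

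Genes with more than 5 reads in at least 4 samples were tested with limma 3.58.1 in R 4.3.3 (trend, robust, two-sided) on log2(normalized count + 1), which understates changes of low genes, with Benjamini-Hochberg adjustment over 18130 genes. The groups came from the sample titles. Same-numbered samples deviated together from their groups (r = 0.269, 0.493 and 0.388 over 11587 genes), every r above the limit of 0.1, and are shown as pairs. The main limma fit nonetheless did not use the pairs, and SEs are from it unless the block is named. A fit with the replicate number as a block was an alternative, and its values are given where they change a call. Replicates were distinct libraries (chi-square per degree of freedom 3.25 to 5.31), but nothing says that they were separate differentiations, so p-values measure the spread between these samples. edgeR 4.0.16 and DESeq2 1.42.0 on the recovered reads, other scalings, pseudocounts and filters, and samples left out were alternatives. As a check of the code only, the limma fit was run on simulated counts with a pair effect and the same dispersion for all genes. That run says nothing of error rates in these samples.

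The members and gene lists were chosen with earlier results of these data known. The text names the members, close relatives, overlapping genes, list genes past an FDR of 0.05 with or without the block, and the genes most like KLF6 and KLF10. HDAC1, HDAC2, HDAC3, the Sin3 and CtBP genes, GAP43, L1CAM, TUBB3, PODXL, SOX2, POU5F1 and the markers past the threshold in limma with the block are named besides, chosen after their values were seen. Lengths and positions are from GENCODE release 44 and promoters from RefSeq.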

Additional observations from a re-analysis of the deposited data

How the results depend on the processing

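Over 22 alternative settings (21 for KLF5 and KLF9, removed where a mean of 50 normalized counts was required), KLF6 (0.35 to 0.50), KLF10 (0.44 to 0.86), KLF5 (0.70 to 0.92) and KLF7 (0.059 to 0.10) kept a positive log2 difference, while KLF3 turned without untreated replicate 3 (-0.006) and KLF9 in 2 settings, without isoproterenol replicate 2 (-0.57) and in the replicate block without pair 2 (-0.53). Calls depended mainly on the replicate block. The block raised genes past FDR 0.05 from 3 to 885 (edgeR with the block 977, DESeq2 with it 143 and without it 21, limma without trend and robust moderation 0), members from 0 to 2 (edgeR with the block 2, DESeq2 1 with or without it), partners from 0 to 2 (edgeR with the block 2, DESeq2 0 with or without it), reported targets from 0 to 3 (edgeR with the block 3, DESeq2 1 with or without it) and cell type markers from 0 to 3 (edgeR with the block 3, DESeq2 with it 1). Leaving out 1 sample at a time gave 2 to 67 genes (67 without isoproterenol replicate 2), 0 to 1 members, 0 to 2 targets, 0 to 1 markers and a members' median of 0.041 to 0.13. With the block and 1 pair left out there were 531, 665 and 456 genes (without pair 1, 2 and 3), 1 to 2 members, 0 to 1 partners, 2 to 3 targets and 3 to 4 markers. The causes were not tested. Values on 10 to 38 reads, as for KLF5 and KLF9, carry a large counting error. In isoproterenol samples the coefficient of variation of KLF9 was 89.6%, beside 22.9% on average for counting error alone. That spread rests on isoproterenol replicate 2, and its cause was not tested.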
